A study of Arabidopsis thaliana with 48 samples.

Results

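Gene expression in excised *Arabidopsis* leaves was compared between the first and the second time point of a 16-point series, 19.5 h and 20 h, which lie 0.5 h apart. The comparison rests on 6 of the 48 libraries of the series, 3 replicates at each time, and covers all 34262 genes of the count table. From plants aged 21 days, rosette leaf number 4 was cut off at the petiole and floated on buffer. The labels of these samples give no genotype, and the wild type of the study is Columbia (Col-0). Both groups had the same history, 24 h in the dark at 16 °C followed by continuous light at 22 °C, and the hours count from the end of that dark and cold treatment as far as the labels tell. By their labels they differ only in the time of collection. The material is given as excised leaf, so the cut end of the petiole, where roots later form, can make up only a part of each sample. No source used here tells whether the replicates came from separate plants or plates. The p-values therefore cover only the spread seen among these samples, part of which may be technical.

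An excised leaf keeps its circadian clock, in which the morning MYB factors *LHY* and *CCA1* repress evening genes through a promoter sequence known as the evening element. *PRR9* and *PRR7*, which follow in the morning, repress *LHY* and *CCA1* in turn. Cutting also stops export through the phloem and sets off auxin synthesis in the blade. That auxin travels to the cut end of the petiole, where it starts *de novo* root regeneration (DNRR). The comparison asks what changed in these leaves over 0.5 h at the start of the sampled window.

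Promoter sequences of some genes with an evening element, and of clock genes with a G-box, are shown first. They were picked because they hold the motif. Of the genes called over all libraries, 2 of 53 promoters of those that rose and 1 of 15 of those that fell held the evening element, against 3.07% of all tested genes. They were taken from RefSeq for TAIR10.1, are written 5′ to 3′ on the gene's strand and end at the base before the annotated start. Each begins a few bases before its first match and is in lower case, with motif matches in capitals. The evening element was searched for as AAAATATCT on both strands, so that AGATATTTT in capitals marks it on the opposite strand. *AT4G16880* (chr4:9497314-9497453, minus strand), a leucine-rich repeat protein gene, and *CYP71B26* (chr3:9634823-9634972, minus strand), a cytochrome P450 gene, rose at 20 h and hold it 129 and 137 bases before the start. A second match of *AT4G16880* begins 2 bases before the start and runs into the transcript, outside the stretch shown. *AT2G16365* (chr2:7074009-7074118, plus strand), an F-box protein gene, fell and holds 2 copies, 94 and 54 bases before the start. *GRP7* (chr2:9266558-9266647, minus strand), which encodes a clock-controlled RNA-binding protein, did not pass the test over all libraries and holds 3 copies within 90 bases.
AT4G16880: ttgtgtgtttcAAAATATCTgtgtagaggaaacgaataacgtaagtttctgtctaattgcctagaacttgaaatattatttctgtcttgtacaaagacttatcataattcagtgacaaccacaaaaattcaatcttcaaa
CYP71B26: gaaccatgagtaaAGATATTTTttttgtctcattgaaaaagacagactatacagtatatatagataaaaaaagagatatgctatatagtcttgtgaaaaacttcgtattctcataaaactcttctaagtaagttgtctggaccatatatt
AT2G16365: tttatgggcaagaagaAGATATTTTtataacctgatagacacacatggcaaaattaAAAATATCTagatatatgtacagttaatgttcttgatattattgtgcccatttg
GRP7: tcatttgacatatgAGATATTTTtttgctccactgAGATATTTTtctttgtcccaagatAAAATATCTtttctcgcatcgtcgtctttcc

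The G-box CACGTG, the core site of several light-regulated transcription factors, is in capitals in the promoters of *LHY* (chr1:37872-37971, minus strand), *CCA1* (chr2:19245381-19245590, plus strand), *PRR9* (chr2:19232357-19232606, plus strand) and *PRR7* (chr5:642031-642250, minus strand). These 4 genes are shown side by side because the first pair stood lower and the second pair higher at 20 h, and all of them hold the same 6 letters. *PRR9* holds 2 copies, and 8.96% of the promoters of all tested genes held a G-box.
LHY: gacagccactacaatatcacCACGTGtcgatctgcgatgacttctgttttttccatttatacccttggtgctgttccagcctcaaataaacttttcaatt
CCA1: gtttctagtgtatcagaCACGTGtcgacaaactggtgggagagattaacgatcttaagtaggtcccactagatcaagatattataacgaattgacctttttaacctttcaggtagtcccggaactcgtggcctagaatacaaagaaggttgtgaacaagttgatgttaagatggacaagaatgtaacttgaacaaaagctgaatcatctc
PRR9: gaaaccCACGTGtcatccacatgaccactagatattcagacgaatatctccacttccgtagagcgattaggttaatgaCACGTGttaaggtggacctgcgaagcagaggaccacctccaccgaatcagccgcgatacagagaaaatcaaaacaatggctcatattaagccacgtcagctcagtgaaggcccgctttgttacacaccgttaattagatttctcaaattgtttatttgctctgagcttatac
PRR7: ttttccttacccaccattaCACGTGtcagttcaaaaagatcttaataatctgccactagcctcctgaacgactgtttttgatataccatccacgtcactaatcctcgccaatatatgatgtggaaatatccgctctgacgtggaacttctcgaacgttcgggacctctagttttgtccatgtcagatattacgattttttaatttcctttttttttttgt

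The 6 libraries held 24256327 to 33317729 counted reads, with 21534 to 21965 genes detected, and levels are given as CPM, counts scaled by library size and TMM factor to a common total. The libraries of a time point were not tight groups. Libraries were compared by their deviations from the gene means, over 11467 genes above 10 CPM. Replicates 1 and 2 of 19.5 h were closest to each other (r = 0.86), but the library closest to each of the other 4 belonged to a different time point. Replicate 3 of 19.5 h was closest to a 22 h library (r = 0.75, against 0.55 for the best of its own time). Replicates 1 and 2 of 20 h were closest to 23.5 h libraries (r = 0.65 and 0.79, against 0.33 and 0.44), and replicate 3 was closest to a 21.5 h library (r = 0.63, against 0.44). These correlations are across genes, which are not independent replicates.

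Among the genes that rose between 19.5 and 20 h, and picked out here with their values in view, were the transporter genes *AAP2*, *AAP4*, *SULTR2;1*, *NRT1.9*, *HMA2* and *ABCB19*, which carry amino acids, sulfate, nitrate, zinc and auxin. Among the genes that fell were *BAM3*, a chloroplast beta-amylase that releases maltose from starch, and *HCAR*, which converts chlorophyll b derivatives back to the a form. In the edgeR quasi-likelihood fit of all 48 libraries with the replicate number as a factor, 54 of 17562 tested genes were higher at 20 h (0.307%) and 15 were lower (0.0854%) at an adjusted p under 0.05. At an unadjusted p under 0.05 the numbers were 1403 (7.99%) and 1420 (8.09%), and either direction of the adjusted calls came to 69 genes (0.393%). The median log2 change was 0.93 among the genes that rose (0.35 to 2.24) and -0.59 among those that fell (-0.39 to -1.37). In all 54 and all 15 the 3 libraries of 20 h lay outside the range of those of 19.5 h. Of all tested genes, 1999 met this criterion upwards (11.4%) and 2046 downwards (11.7%).

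How many genes passed depended on which libraries set the spread. Samples with the same replicate number deviated together, and the paired fit of the 6 libraries alone called 900 genes higher (5.12%) and 1145 lower (6.52%), in all 2045 (11.6%). It included 50 of the 54 and all 15. The 22.5 h replicate 1 and the 24 h replicate 3 correlated below 0 with their own time point (best r = -0.34 and -0.06) and are called the 2 displaced libraries here. Without them the fit of the rest gave 571 genes higher (3.25%) and 624 lower (3.55%), with all 54 and all 15 among them. With library totals in place of TMM, 17 genes were higher and 19 lower, so that 47.2% of the calls were higher against 78.3% with TMM. The median log2 change of all genes moved with it, from -0.003 to -0.102. No gene passed edgeR's test over all libraries without 19.5 h replicate 2 (1033 higher and 1169 lower at an unadjusted p under 0.05) or without 20 h replicate 2 (1271 and 942). Without 20 h replicate 3, 1 gene passed as higher and none as lower, without 20 h replicate 1 it was 18 and 17, and without 19.5 h replicate 1 it was 20 and 0. The paired fit likewise called none without replicate 2 (1629 and 1711 at an unadjusted p under 0.05; smallest adjusted p = 0.0787). It called 41 higher and 24 lower without replicate 3, and 1451 and 1618 without replicate 1. For genes that did not pass over all libraries, adjusted p-values are given in the order all libraries, paired fit and fit without the 2 displaced libraries. No such gene is said to have risen or fallen. The 40 named genes that passed over all libraries also passed both of these fits, and their highest adjusted p over the 17 alternatives was between 0.16 and 0.28. Of the 83 named genes that did not, 73 passed the paired fit, 49 the fit without the 2 displaced libraries, and 49 both. Over all tested genes the paired fit called 11.6%, and the fit without the 2 displaced libraries 3.25% higher and 3.55% lower. Most of these genes were named for a small p or with their values in view, so nothing is read from these counts.

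*AAP2*, an amino acid permease of the phloem that takes up amino acids from the xylem stream, was at 55.7, 51.5 and 59.3 CPM in the 3 libraries of 19.5 h and at 84.6, 97.2 and 103 CPM in those of 20 h. Each 20 h library exceeded every 19.5 h library, and the log2 change was 0.77 ± 0.15 (SE of the fit; adjusted p = 0.023). Its relative *AAP4* went from 151, 109 and 146 to 228, 209 and 220.4 CPM (log2 change 0.69 ± 0.14, adjusted p = 0.023). Both permease genes were lowest in replicate 2 at 19.5 h. *SULTR2;1*, a low-affinity sulfate transporter of vascular tissue, was at 75.5, 54.2 and 66.8 CPM and then at 97.0, 95.2 and 114 CPM (0.64 ± 0.14, adjusted p = 0.035).

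*NRT1.9*, a nitrate transporter of phloem companion cells, rose from 7.63, 4.83 and 7.09 to 10.9, 9.46 and 11.3 CPM (log2 change 0.70 ± 0.16, adjusted p = 0.04). *HMA2*, a P-type ATPase that exports zinc for loading into the xylem, rose from 25.0, 20.2 and 23.9 to 36.8, 35.5 and 41.0 CPM (0.71 ± 0.16, adjusted p = 0.041). *UMAMIT28*, of an amino acid exporter family, rose from 6.78, 4.94 and 7.405 to 13.96, 9.83 and 12.8 CPM (0.93 ± 0.20, adjusted p = 0.032). The 3 libraries of each time did not overlap for any of these genes, and replicate 2 gave the lowest value at both times for *NRT1.9* and *UMAMIT28*.

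*SUS6*, a sucrose synthase of the clade found in sieve elements, was at 5.98, 3.41 and 5.52 CPM at 19.5 h and at 9.69, 8.44 and 9.36 CPM at 20 h (log2 change 0.88 ± 0.21, adjusted p = 0.044). *RTM1* and *RTM2*, which restrict long-distance movement of an aphid-borne virus in the phloem, both rose. *RTM1*, a jacalin-type lectin gene, went from 4.17, 3.71 and 4.98 to 8.89, 8.26 and 7.48 CPM (0.93 ± 0.20, adjusted p = 0.032), and *RTM2*, a small heat shock protein-like gene, from 4.93, 3.94 and 4.63 to 10.5, 9.79 and 9.003 CPM (1.12 ± 0.19, adjusted p = 0.015). The adjusted p of *RTM2* was the smallest of all genes. Of the other called genes annotated as HSP20-like chaperones, *AT5G20970* rose from 9.52, 5.78 and 8.97 to 17.1, 16.5 and 16.1 CPM (1.03 ± 0.20, adjusted p = 0.023).

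*CTL2*, a chitinase-like protein needed for cellulose assembly, rose from 7.58, 4.29 and 7.34 to 12.9, 13.6 and 15.1 CPM (log2 change 1.12 ± 0.24, adjusted p = 0.031). *PRR1*, which here is pinoresinol reductase 1 of lignan synthesis and not a clock gene, rose from 7.04, 3.83 and 6.32 to 10.2, 11.1 and 14.99 CPM (1.09 ± 0.22, adjusted p = 0.023). The membrane protein genes *AT1G29520* and *AT5G18970*, both annotated as AWPM-19-like, had log2 changes of 0.87 ± 0.17 (adjusted p = 0.023) and 0.88 ± 0.18 (adjusted p = 0.023). For all 4 genes replicate 2 was the lowest library of 19.5 h.

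*ABCB19*, an auxin efflux transporter that carries auxin down the stem and petiole, was at 50.5, 50.2 and 69.4 CPM at 19.5 h and at 92.5, 92.2 and 113 CPM at 20 h. The log2 change was 0.81 ± 0.18 (adjusted p = 0.04), and replicate 3 was the highest at both times. *NAC1*, a NAC transcription factor that acts in root formation, went from 22.4, 29.7 and 38.3 to 46.5, 50.5 and 65.3 CPM (0.84 ± 0.20, adjusted p = 0.049), again with replicate 3 highest. *BEH1*, a homologue of the brassinosteroid-response factors BES1 and BZR1, went from 31.9, 32.6 and 37.0 to 57.0, 52.8 and 55.3 CPM (0.70 ± 0.16, adjusted p = 0.042).

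The largest rise among called genes above 10 CPM was that of *AT3G55240*, a plant-specific gene of unknown function, from 98.9, 111 and 164 to 383, 341 and 326 CPM (log2 change 1.49 ± 0.28, adjusted p = 0.023). *CIPK20*, a kinase regulated by calcineurin B-like calcium sensors, went from 11.9, 12.7 and 16.5 to 34.3, 31.8 and 41.7 CPM (1.39 ± 0.30, adjusted p = 0.032). *AT3G16800*, a protein phosphatase 2C gene, went from 26.9, 30.4 and 33.3 to 62.4, 61.8 and 51.9 CPM (0.96 ± 0.18, adjusted p = 0.023). The gap between the times exceeded the spread within each time for all 3 genes. *CYP71B26*, whose promoter is given above, went from 40.9, 49.5 and 58.9 to 88.1, 108 and 101 CPM (0.99 ± 0.24, adjusted p = 0.047), and *AT4G16880* from 3.54, 2.72 and 3.22 to 10.5, 11.97 and 9.57 CPM (1.76 ± 0.39, adjusted p = 0.035).

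*HFR1*, a helix-loop-helix protein that restrains shade responses, had the highest log2 change of the called genes, but at low counts. It stood at 1.31, 1.88 and 3.70 CPM at 19.5 h and at 13.2, 7.69 and 12.1 CPM at 20 h (log2 change 2.24 ± 0.53, adjusted p = 0.045). The 12 genes with the largest rises above 10 CPM also held *scpl50*, a serine carboxypeptidase-like gene (0.93 ± 0.18, adjusted p = 0.023), and *NS2*, an asparaginyl-tRNA synthetase gene (0.74 ± 0.17, adjusted p = 0.045). Smaller rises with little spread were seen for *PYD1*, of pyrimidine breakdown, with 92.8, 104 and 118 CPM against 138, 148 and 159 CPM, and for *SCE1*, the SUMO-conjugating enzyme, with 74.4, 68.0 and 70.8 CPM against 97.2, 94.6 and 95.5 CPM. Their log2 changes were 0.50 ± 0.11 (adjusted p = 0.041) and 0.43 ± 0.08 (adjusted p = 0.023).

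**Figure D1:**
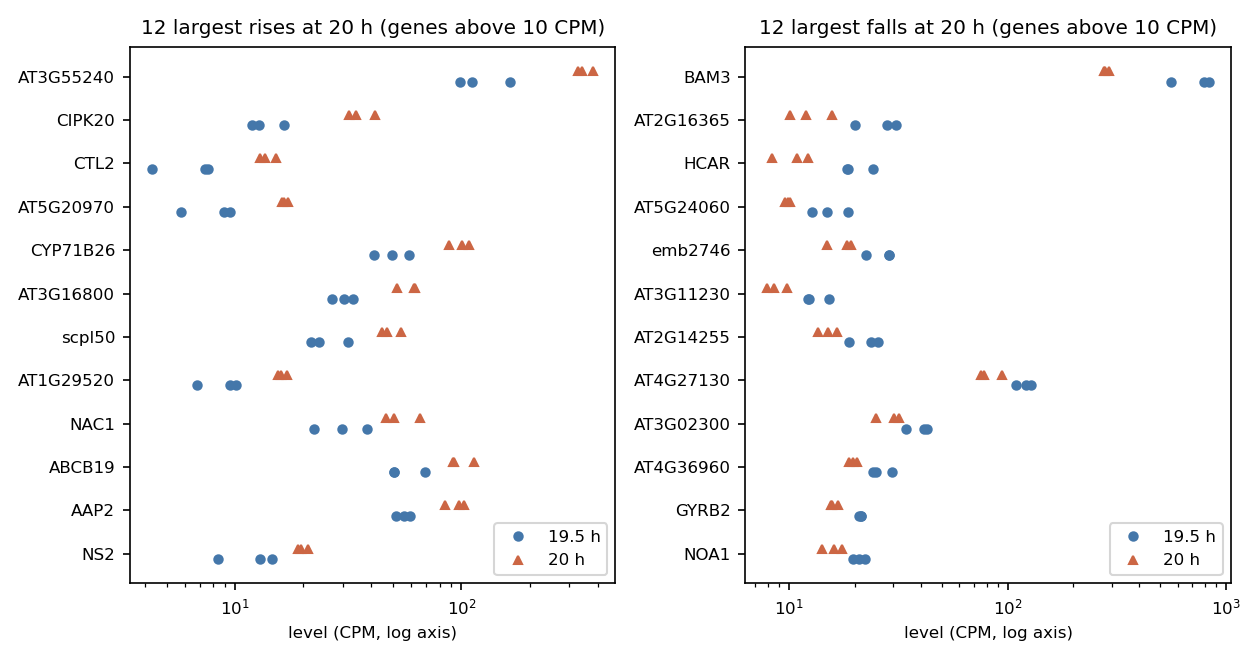
Level in CPM on a log axis in each of the 3 libraries of 19.5 h (circles) and of 20 h (triangles), for the 12 genes with the largest rises and the 12 with the largest falls among called genes above 10 CPM. The circles and triangles of a gene do not overlap for any of the 24 genes, which the choice of genes required, and *BAM3* stands between 556 and 833 CPM at 19.5 h against 276 to 290 CPM at 20 h.

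Markers of vascular cells had log2 changes above 0 and those of the epidermis did not stand apart. None of the 5 xylem markers tested passed over all libraries, but all 5 passed the paired fit and the fit without the 2 displaced libraries. Their median log2 change was 0.74, against -0.003 for all tested genes. Over all tested genes the paired fit called 5.12% higher and 6.52% lower, and the counts of each list below stand against these shares. Without the 2 displaced libraries 3.25% were higher. *XCP1*, a cysteine protease of differentiating vessels, was at 11.4, 8.23 and 11.3 CPM and then at 19.6, 20.11 and 22.3 CPM (log2 change 1.01 ± 0.25; adjusted p = 0.065, 0.006 and 0.0023). *XCP2* was at 19.0, 18.5 and 22.1 CPM and then at 37.0, 35.6 and 39.3 CPM (0.91 ± 0.25; adjusted p = 0.08, 0.004 and 0.0012). The 20 h libraries lay above all 19.5 h libraries for both proteases. The cellulose synthases of the secondary wall, *IRX1*, *IRX3* and *CESA4*, had log2 changes of 0.65, 0.64 and 0.74 (adjusted p = 0.14, 0.14 and 0.096, and 0.014, 0.014 and 0.027 in the paired fit).

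Of 6 phloem markers 1 passed over all libraries, *SULTR2;1*, and 3 passed the paired fit. All 6 were above 0, with a median of 0.50. *SUC2*, the sucrose transporter that loads companion cells, was at 265, 219 and 353 CPM and then at 353, 378 and 539 CPM (log2 change 0.60 ± 0.19; adjusted p = 0.12, 0.017 and 0.043). The highest 19.5 h library of *SUC2* and the lowest 20 h library were almost level. *SEOR1*, a sieve element protein, was at 27.2, 20.3 and 25.7 CPM and then at 41.0, 33.3 and 37.0 CPM (0.61 ± 0.18; adjusted p = 0.10, 0.0074 and 0.015). The libraries of *APL*, *PP2-A1* and *SWEET11* overlapped between the times, with log2 changes of 0.39, 0.30 and 0.31 (adjusted p = 0.06, 0.20 and 0.12 in the paired fit).

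The summed level of the xylem markers was 51.7 to 61.8 CPM at 19.5 h and 96.5 to 109.8 CPM at 20 h, and that of the phloem markers 922 to 1322 and 1485 to 1628 CPM. The summed guard cell markers ran from 1021 to 1264 and from 1054 to 1223 CPM, and those of the epidermis from 1256 to 1533 and from 1256 to 1470 CPM, so both overlapped. Of 8 guard cell markers none passed over all libraries and *HT1*, a kinase of the CO2 response, passed the paired fit (log2 change 0.66 ± 0.18; adjusted p = 0.08, and 0.049 in the paired fit). None of 5 epidermis markers passed either fit, with a median of -0.10. The epidermis marker *PDF1* was under the level for testing. In bulk leaves, more cells of a type and more RNA per cell cannot be told apart. The part of the vascular markers in the rises of *AAP2*, *SULTR2;1*, *CTL2* and the other genes above was not tested.

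**Figure D2:**
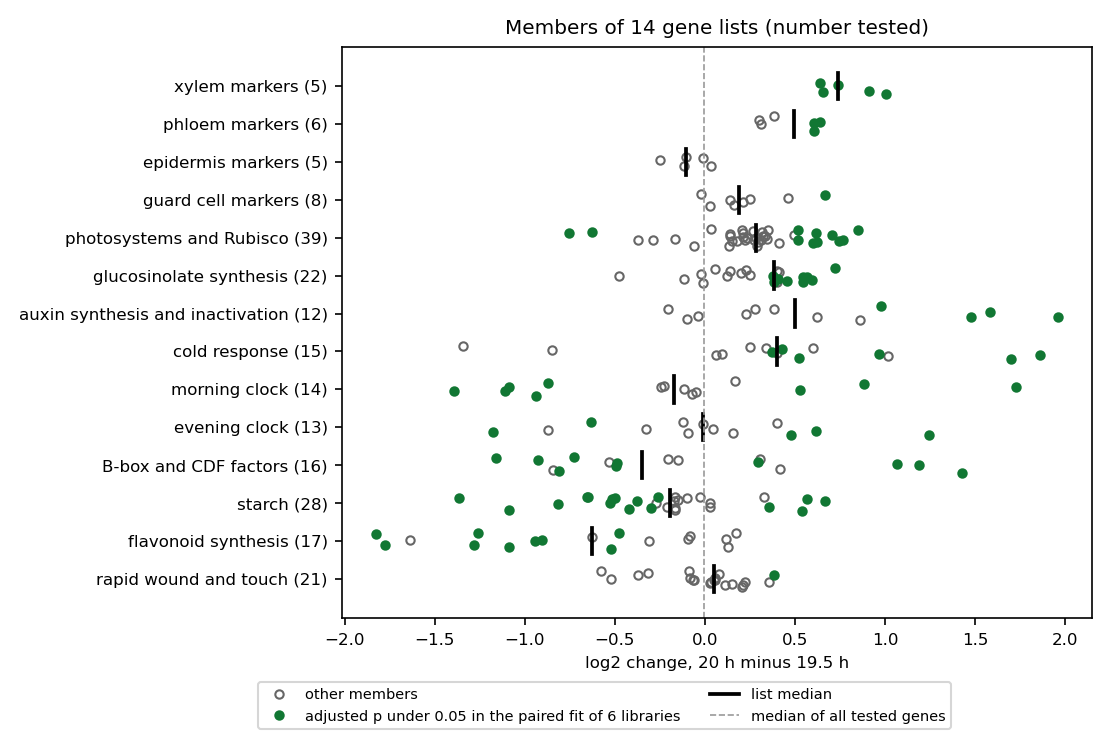
Log2 change from 19.5 to 20 h of each tested member of 14 gene lists, with list medians as black bars, filled circles for members with an adjusted p under 0.05 in the paired fit of the 6 libraries, and a dashed line for the median of all tested genes. All 5 xylem and all 6 phloem markers lie above 0, flavonoid genes lie mostly below 0 with a median of -0.63, and clock genes lie on both sides.

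Among the 15 genes that fell, *BAM3* was at 794, 833 and 556 CPM at 19.5 h and at 280.0, 289.7 and 276 CPM at 20 h, with replicate 3 the lowest at both times (log2 change -1.37 ± 0.27, adjusted p = 0.023). *HCAR* went from 24.1, 18.7 and 18.3 to 12.2, 10.9 and 8.36 CPM (-0.96 ± 0.19, adjusted p = 0.023), and *AT2G16365*, the F-box gene with 2 evening elements, from 30.8, 28.1 and 19.9 to 15.7, 11.9 and 10.09 CPM (-1.06 ± 0.23, adjusted p = 0.031). These 3 had the largest falls among called genes above 10 CPM, and no library of one time reached the range of the other.

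*GYRB2*, a subunit of the organellar DNA gyrase, fell with little spread, from 21.3, 21.3 and 20.9 to 15.5, 16.7 and 15.6 CPM (log2 change -0.41 ± 0.08, adjusted p = 0.023). *emb2746*, an RNA-processing metallo-beta-lactamase, went from 28.6, 28.6 and 22.5 to 18.4, 14.9 and 19.1 CPM (-0.61 ± 0.12, adjusted p = 0.023). *NOA1*, a GTPase of plastid ribosomes, went from 22.2, 19.6 and 20.8 to 16.0, 14.1 and 17.5 CPM (-0.39 ± 0.09, adjusted p = 0.042). The times did not overlap for any of the 3 genes, and the replicates of the gyrase gene at 19.5 h were almost level.

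The pentatricopeptide repeat gene *AT5G24060* fell by 0.64 on the log2 scale (adjusted p = 0.045), the Yippee-like gene *AT3G11230* by 0.59 (0.035) and the ankyrin and DHHC protein gene *AT2G14255* by 0.59 (0.035). The translation initiation factor gene *AT4G27130*, of the SUI1 family, went from 121, 128 and 109 to 94.5, 75.4 and 78.1 CPM (-0.53 ± 0.12, adjusted p = 0.035). *AT3G02300*, of the RCC1 family, and *AT4G36960*, an RNA-binding protein gene, completed the 12 largest falls with -0.45 ± 0.10 and -0.42 ± 0.10 (adjusted p = 0.046 and 0.045). *SDG38*, a SET domain protein gene at low counts, went from 1.73, 2.03 and 1.88 to 1.11, 0.976 and 0.764 CPM (-0.99 ± 0.21, adjusted p = 0.031).

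None of 14 morning and 13 evening clock genes passed over all libraries, while in the paired fit 3 morning genes were higher and 5 lower, and 3 evening genes were higher and 2 lower. The median log2 changes of the lists were -0.17 and -0.01. *LHY* was at 406, 390.0 and 385 CPM at 19.5 h and at 218, 185 and 148 CPM at 20 h. All 3 libraries of 20 h lay far below those of 19.5 h (log2 change -1.11 ± 0.57; adjusted p = 0.33, 0.0041 and 4.4e-05; 4.4e-05 to 0.57 over the 17 alternatives). *CCA1* was at 246, 199 and 162 CPM and then at 136, 109 and 72.5 CPM (-0.94 ± 0.44; adjusted p = 0.29, 0.0041 and 0.0023). *RVE8*, an activator from the same MYB family, was at 98.7, 92.6 and 81.3 CPM and then at 64.1, 48.1 and 37.7 CPM (-0.87 ± 0.43; adjusted p = 0.32, 0.0049 and 8.9e-06). Replicate 1 gave the highest value and replicate 3 the lowest for these 3 genes at both times, and the times did not overlap.

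*RVE1* and *RVE2*, also of that family, had log2 changes of -1.09 and -1.39 (adjusted p = 0.36 and 0.32, and 0.011 and 0.0065 in the paired fit), and the libraries of *RVE1* overlapped. The genes that follow *LHY* stood on the other side. *PRR9* was at 4.42, 5.55 and 5.01 CPM at 19.5 h and at 18.8, 18.5 and 11.98 CPM at 20 h (log2 change 1.73 ± 0.53; adjusted p = 0.12, 0.0042 and 9.6e-05; 9.6e-05 to 0.32 over the alternatives). *PRR7* was at 39.9, 41.5 and 52.5 CPM and then at 85.3, 78.0 and 83.6 CPM (0.88 ± 0.34; adjusted p = 0.20, 0.0047 and 0.00019). The lowest 20 h library of each *PRR* gene exceeded the highest of 19.5 h.

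Among evening genes, *GI*, a scaffold for clock protein turnover, was at 14.7, 17.7 and 14.1 CPM and then at 29.4, 41.1 and 39.8 CPM (log2 change 1.24 ± 0.53; adjusted p = 0.25, 0.0041 and 2.6e-06; 2.6e-06 to 0.49 over the alternatives). *GRP8* was at 106, 129 and 107 CPM and then at 140.1, 208 and 176 CPM (0.62 ± 0.36; adjusted p = 0.40, 0.012 and 0.035), and *GRP7*, its close relative, at 83.5, 76.5 and 75.7 CPM and then at 100.3, 115 and 115 CPM (0.48 ± 0.68; adjusted p = 0.77, 0.023 and 0.29). *ELF3*, a part of the evening complex, lay on the opposite side, at 26.9, 20.3 and 18.2 CPM and then at 15.9, 12.04 and 14.3 CPM (-0.63 ± 0.18; adjusted p = 0.096, 0.018 and 0.025). So did *PRR3*, at 5.01, 3.71 and 2.68 CPM and then at 1.29, 1.99 and 1.73 CPM (-1.18 ± 0.40; adjusted p = 0.16, 0.046 and 0.03). The libraries of *TOC1* and *PRR5* overlapped, with log2 changes of -0.12 ± 0.22 and 0.40 ± 0.75 (adjusted p = 0.42 and 0.35 in the paired fit).

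Genes outside the lists with known daily rhythms, named after their values were seen, also differed in the paired fit. *CCL*, whose transcript is known for rapid clock-controlled decay, was at 149, 99.4 and 162 CPM and then at 544, 295 and 495 CPM (log2 change 1.70 ± 0.56; adjusted p = 0.14, 0.0021 and 0.0053). *AT1G20620*, the catalase gene *CAT3*, was at 2559, 2659 and 2568 CPM and then at 5972, 5449.7 and 6189 CPM (1.18 ± 0.40; adjusted p = 0.16, 0.0043 and 4.2e-06). The catalase gene *AT4G35090*, *CAT2*, was at 2220.1, 2106 and 1459 CPM and then at 1259, 945 and 815 CPM (-0.94 ± 0.49; adjusted p = 0.34, 0.0057 and 0.0015). The 2 catalase genes thus lay on opposite sides, with no overlap between the times for either.

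**Figure D3:**
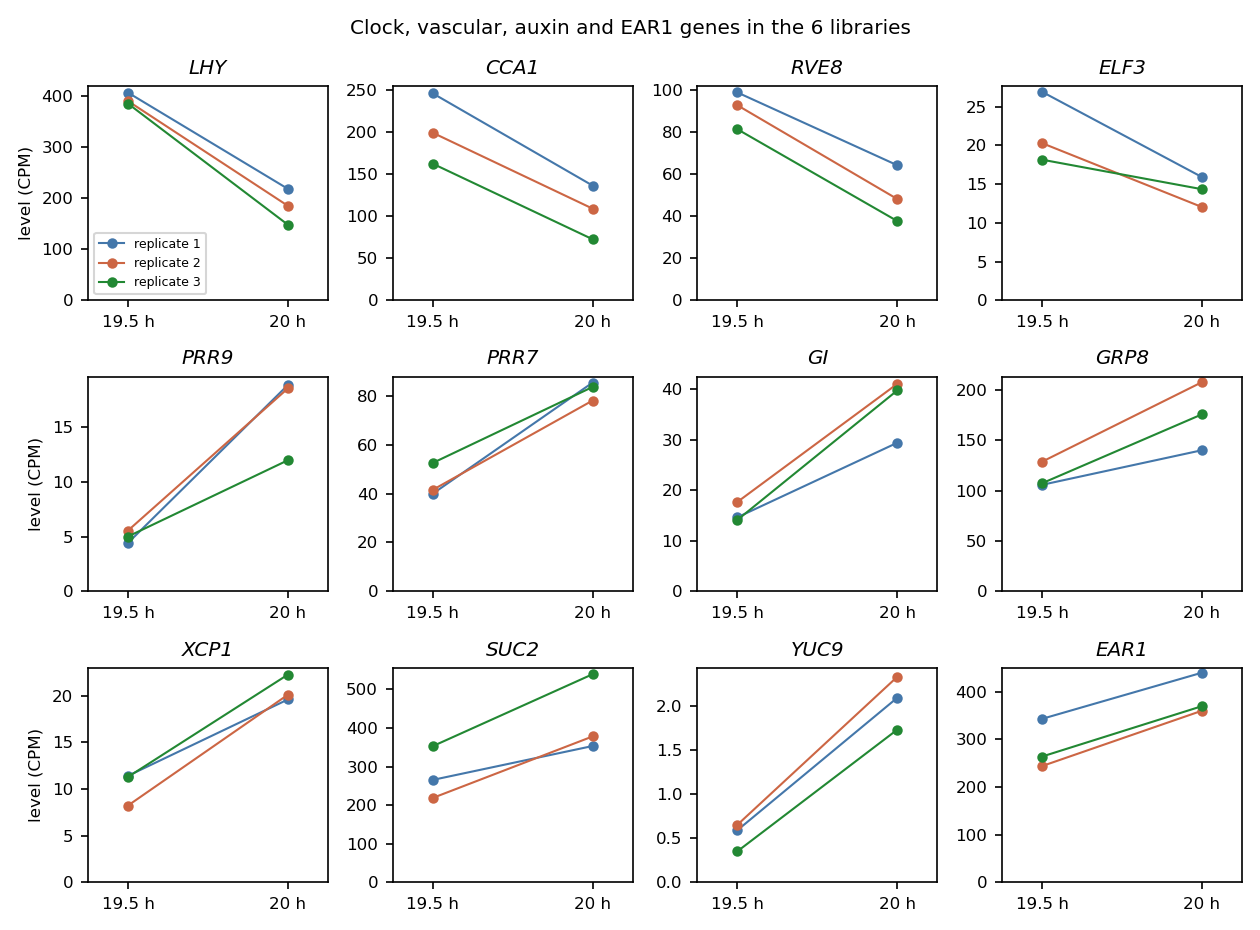
Level in CPM, on axes from 0, of 12 clock, vascular, auxin and *EAR1* genes in the 6 libraries, with a line joining the samples of the same replicate number at 19.5 and 20 h. All 3 lines slope down for *LHY*, *CCA1*, *RVE8* and *ELF3* and up for the other 8 genes, for instance from 4.42 to 18.8 CPM for *PRR9* in replicate 1.

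Light signalling genes lay on both sides in the paired fit, with 3 of 15 higher, 3 lower and none passing over all libraries. *HFR1*, called above, is not on this list. The photoreceptor gene *PHYA* was at 117, 103 and 144 CPM and then at 219, 161 and 193 CPM (log2 change 0.66 ± 0.21; adjusted p = 0.13, 0.012 and 0.012), and *PHYB* at 77.1, 79.7 and 65.0 CPM and then at 114, 121 and 85.2 CPM (0.53 ± 0.16; adjusted p = 0.11, 0.0095 and 0.018). No library of one time reached the range of the other for either phytochrome. *PHOT1*, the blue light receptor of phototropism, had a log2 change of 0.58 ± 0.21 (adjusted p = 0.18, and 0.014 in the paired fit) with overlapping libraries. *HYH*, a bZIP factor that acts with HY5, was at 14.6, 12.9 and 8.14 CPM and then at 5.82, 6.57 and 3.78 CPM (-1.13 ± 0.42; adjusted p = 0.18, 0.0049 and 0.0013). *COP1*, the ubiquitin ligase that removes such factors, was at 33.3, 33.0 and 30.4 CPM and then at 26.5, 25.4 and 20.09 CPM (-0.43 ± 0.14; adjusted p = 0.14, 0.02 and 0.011). The receptors were therefore higher, and both the bZIP factor and the ligase lower, in each of the 3 pairs.

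B-box zinc finger genes, many of which act with HY5, also lay on both sides. Of 16 B-box and CDF genes 4 were higher and 6 lower in the paired fit, and none passed over all libraries. *BBX28* was at 26.9, 27.4 and 36.8 CPM and then at 67.9, 57.7 and 65.6 CPM (log2 change 1.07 ± 0.32; adjusted p = 0.11, 0.0041 and 0.0003). *BBX22* and *BBX29* had log2 changes of 1.19 ± 0.56 and 1.43 ± 0.64 (adjusted p = 0.29 and 0.27, and 0.0041 and 0.0089 in the paired fit). *BBX19* and *COL2* had -0.81 ± 0.33 and -0.92 ± 0.58 (adjusted p = 0.22 and 0.43, and 0.0049 and 0.015 in the paired fit).

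Flavonoid synthesis, a pathway that light induces through HY5 and MYB factors, lay mostly below 0. None of 17 tested members passed over all libraries, 9 passed the paired fit as lower and none as higher, and the median log2 change was -0.63. *CHS*, the first committed enzyme, was at 213, 272 and 277 CPM at 19.5 h and at 111, 77.2 and 129 CPM at 20 h (log2 change -1.28 ± 0.67; adjusted p = 0.35, 0.0072 and 0.055). *F3H* was at 13.5, 23.3 and 24.8 CPM and then at 6.89, 7.20 and 11.8 CPM (-1.26 ± 0.52; adjusted p = 0.23, 0.0058 and 0.046). The glucosyltransferase gene *UGT78D2* was at 43.0, 53.1 and 46.6 CPM and then at 30.0, 23.6 and 22.7 CPM (-0.90 ± 0.25; adjusted p = 0.084, 0.0081 and 2.5e-05). *4CL3*, which activates the precursor, was at 4.21, 8.50 and 13.4 CPM and then at 1.51, 1.801 and 4.099 CPM (-1.82 ± 0.68; adjusted p = 0.18, 0.0041 and 0.053). For these 4 genes no 20 h library reached the lowest 19.5 h library.

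Of 28 starch genes, *BAM3* alone passed over all libraries, while the paired fit gave 4 higher and 12 lower, with a median of -0.19. *PWD*, the dikinase that phosphorylates starch for breakdown, was at 151, 143 and 127 CPM and then at 92.4, 82.4 and 93.9 CPM (log2 change -0.65 ± 0.19; adjusted p = 0.10, 0.0083 and 0.0084). *SS3*, a starch synthase, was at 56.5, 53.3 and 62.1 CPM and then at 37.9, 30.6 and 41.0 CPM (-0.65 ± 0.25; adjusted p = 0.21, 0.0049 and 0.011), and *GBSS1*, which makes amylose, at 729, 1102 and 1115 CPM and then at 446, 563 and 668 CPM (-0.81 ± 0.58; adjusted p = 0.50, 0.0059 and 0.33). *PGM*, the plastid phosphoglucomutase, had a log2 change of -0.50 ± 0.15 (adjusted p = 0.10, and 0.022 in the paired fit). Genes of synthesis and of breakdown were thus both among those lower in the paired fit. *DPE2*, which handles exported maltose in the cytosol, lay on the other side, at 118, 159 and 170.4 CPM and then at 180.0, 229 and 303 CPM (0.67 ± 0.24; adjusted p = 0.18, 0.0087 and 0.04).

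Auxin synthesis and inactivation genes had a median log2 change of 0.50 over 12 members, with none passing over all libraries and 4 higher in the paired fit. *YUC9* and *YUC8*, flavin monooxygenases that make auxin, were near the detection limit. *YUC9* was at 0.59, 0.651 and 0.351 CPM and then at 2.09, 2.33 and 1.73 CPM (log2 change 1.96 ± 0.57; adjusted p = 0.10, 0.0087 and 0.0087; 0.0087 to 0.26 over the alternatives), and *YUC8* at 1.01, 0.498 and 0.702 CPM and then at 1.87, 2.14 and 2.13 CPM (1.48 ± 0.39; adjusted p = 0.078, 0.028 and 0.0039). All 3 libraries of 20 h lay above those of 19.5 h for both. *GH3.3*, whose enzyme conjugates auxin to amino acids, was at 4.42, 5.06 and 5.14 CPM and then at 9.20, 18.8 and 16.0 CPM (1.58 ± 0.53; adjusted p = 0.15, 0.0052 and 0.021). Its relative *GH3.5* was at 16.1, 18.7 and 24.4 CPM and then at 37.6, 39.2 and 40.3 CPM (0.98 ± 0.33; adjusted p = 0.15, 0.0049 and 0.012). Neither *GH3* gene overlapped between the times.

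Of 44 auxin transport and signalling genes, *ABCB19* passed over all libraries and 5 were higher in the paired fit, with a median of 0.14. *IAA29* and *IAA2*, early auxin-induced repressors, had log2 changes of 1.77 ± 0.71 and 0.47 ± 0.21 (adjusted p = 0.22 and 0.27, and 0.019 and 0.034 in the paired fit). The auxin efflux carrier gene *PIN3*, the receptor gene *AFB2* and the response factor gene *ARF7* had overlapping libraries and log2 changes of 0.20 ± 0.29, -0.03 ± 0.15 and -0.12 ± 0.09 (adjusted p = 0.25, 0.73 and 0.26 in the paired fit), and so did *TAA1*, of auxin synthesis (0.23 ± 0.20, adjusted p = 0.15). Of 26 tested members of the DNRR-associated list, which the study took from earlier work and itself read on these samples, *ABCB19* and *NAC1* passed over all libraries and 6 were higher in the paired fit, with a median of 0.25. *TCP21*, which binds the *CCA1* promoter, was one of these, at 32.9, 29.2 and 25.9 CPM and then at 60.8, 45.2 and 45.5 CPM (0.78 ± 0.29; adjusted p = 0.19, 0.0043 and 0.02).

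*EAR1*, a regulator of abscisic acid signalling named in the title of the series' paper, was at 343, 244 and 264 CPM at 19.5 h and at 439.7, 360.0 and 369.6 CPM at 20 h. It was higher at 20 h in every pair, and replicate 1 of 19.5 h lay close to the lower 20 h libraries (log2 change 0.46 ± 0.16; adjusted p = 0.16, 0.022 and 0.057; 0.022 to 0.4 over the alternatives). Of 32 abscisic acid genes none passed over all libraries, and 4 were higher and 3 lower in the paired fit. *NCED3*, which makes abscisic acid, was at 5.48, 5.74 and 9.54 CPM and then at 14.6, 12.7 and 18.1 CPM (1.12 ± 0.40; adjusted p = 0.17, 0.0048 and 0.0071). *KMD1*, which marks cytokinin response regulators for degradation, varied more between replicates than between times, at 10.6, 7.05 and 74.2 CPM and then at 41.4, 19.36 and 141 CPM (1.17 ± 0.76; adjusted p = 0.46, 0.0077 and 0.40). It was higher at 20 h within each pair, with replicate 3 far above the others at both times. *ORE1*, a NAC factor of leaf senescence, was at 17.2, 13.8 and 30.9 CPM and then at 31.3, 20.7 and 35.6 CPM, with overlap (0.51 ± 0.37; adjusted p = 0.51, 0.04 and 0.45).

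Among the most abundant transcripts, nuclear genes of the photosystems and Rubisco took 18.9% to 21.3% of the reads at 19.5 h and 21.7% to 25.7% at 20 h, so that the ranges did not overlap. Of the 39 tested, 33 lay above 0, with a median of 0.29. None passed over all libraries, and 9 were higher and 2 lower in the paired fit. *LHB1B2*, of the light-harvesting complex and with a near-identical neighbour that makes its counts uncertain, was at 15366, 16695 and 19550.0 CPM and then at 30825, 25825 and 31588 CPM (log2 change 0.77 ± 0.26; adjusted p = 0.16, 0.022 and 0.017). *LHCA1* and *LHCA3*, of the photosystem I antenna, had log2 changes of 0.62 ± 0.23 and 0.52 ± 0.21 (adjusted p = 0.03 and 0.045 in the paired fit). *CAB3* and *CAB2*, near-identical to each other and uncertain likewise, had 0.71 ± 0.27 and 0.32 ± 0.34 (adjusted p = 0.025 and 0.21). On the opposite side were *NPQ4*, of heat dissipation, at 851, 843 and 821 CPM and then at 621, 466 and 543 CPM (-0.63 ± 0.40; adjusted p = 0.44, 0.013 and 0.039), and the Rubisco small subunit gene *RBCS1B* (-0.75 ± 0.43; adjusted p = 0.38, and 0.017 in the paired fit).

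Transcripts of the plastid genome lay on the other side, with 2 of 73 above 0 and a median of -0.45. None passed over all libraries and 5 were lower in the paired fit. Their sum was 3197 to 5025 CPM at 19.5 h and 2487 to 4550 CPM at 20 h, and the times overlapped. Within each of the 3 pairs the sum was lower at 20 h, but by very different amounts. It went from 4472 to 2487 CPM in replicate 1, from 3197 to 3108 CPM in replicate 2 and from 5025 to 4550 CPM in replicate 3.

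Glucosinolate synthesis genes, which make sulfur-rich defence compounds, were above 0 in 18 of 22, with a median of 0.38. None passed over all libraries, 10 had an unadjusted p under 0.05 and 9 were higher in the paired fit. *MAM3* and *MAM1*, which lengthen the methionine chain, had log2 changes of 0.72 ± 0.24 and 0.54 ± 0.17 (adjusted p = 0.14 and 0.13, and 0.012 and 0.013 in the paired fit). *CYP79F1* and *CYP83A1*, the cytochromes that follow, had 0.59 ± 0.21 and 0.38 ± 0.14 (0.16 and 0.18, and 0.01 and 0.04).

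Of 15 cold response genes none passed over all libraries and 6 were higher in the paired fit, with a median of 0.40. *CBF2*, a cold-induced activator, was at 0.295, 0.268 and 0.192 CPM and then at 1.20, 0.675 and 0.884 CPM (log2 change 1.86 ± 1.06; adjusted p = 0.38, 0.028 and 0.017). Its neighbour and paralog *CBF3* was at 0.421, 0.651 and 0.415 CPM and then at 1.56, 1.95 and 1.29 CPM (1.70 ± 0.99; adjusted p = 0.40, 0.015 and 0.02). All 3 libraries of 20 h lay above those of 19.5 h for both, at counts near the detection limit. *COR413IM1*, a chloroplast membrane protein gene, was at 177, 201 and 303 CPM and then at 427, 386 and 521 CPM (0.97 ± 0.33; adjusted p = 0.16, 0.0052 and 0.0003). Of 21 rapid wound and touch genes 1 was higher in the paired fit, and of 22 jasmonate genes 1 was, both near the 5.12% over all tested genes. The jasmonate gene was *AOC2* of jasmonate synthesis, at 57.9, 69.1 and 80.0 CPM and then at 127, 119 and 172 CPM (1.02 ± 0.29; adjusted p = 0.093, 0.0041 and 0.0025). Of 16 ethylene genes 4 were higher in the paired fit, among them *ETR2*, an ethylene receptor gene (0.86 ± 0.34; adjusted p = 0.21, and 0.006 in the paired fit), and the response factor gene *EIN3*, at 176, 183 and 179 CPM and then at 236, 237 and 232 CPM (0.39 ± 0.12; adjusted p = 0.13, 0.023 and 0.0023). In the paired fit, of 16 cytokinin genes 6 were higher and 1 lower, and of 16 gibberellin and brassinosteroid genes 1 was higher and 1 lower. *BEH1*, called above, is not on the latter list. *KMD1*, whose product marks cytokinin response regulators for degradation, was 1 of the 6 and had the highest log2 change of the cytokinin list (1.17). Of 23 listed cytokinin genes 16 were tested, and those under the level for testing were all response regulators.

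Of 14 wall loosening genes 4 were higher and 1 lower in the paired fit, with a median of 0.39. The expansin gene *EXPA1* was at 8.85, 9.27 and 10.9 CPM and then at 14.3, 18.0 and 17.1 CPM (log2 change 0.77 ± 0.20; adjusted p = 0.076, 0.0085 and 0.012), and *EXPA4* at 35.2, 38.3 and 33.6 CPM and then at 51.2, 57.4 and 48.1 CPM (0.55 ± 0.21; adjusted p = 0.19, 0.0064 and 0.088). All 7 tested cell cycle genes were above 0 with a median of 0.32, and *CYCD3;1*, the D-type cyclin, alone passed the paired fit (0.54 ± 0.20; adjusted p = 0.18, and 0.0496 in the paired fit). Of 20 dark and sugar starvation genes 5 were higher in the paired fit, with *SEN1* at 401, 319 and 215 CPM and then at 1182, 759 and 366 CPM (1.30 ± 0.60; adjusted p = 0.28, and 0.0076 in the paired fit), and of 17 leaf senescence genes 3 were. Replicate 3 of *SEN1* at 20 h lay below replicate 1 at 19.5 h, although each pair was higher at 20 h. Of 12 sulfate and sulfur starvation genes 2 were higher in the paired fit, and of 17 heat shock and protein folding genes none passed it. The called HSP20-like genes, *RTM2* and *AT5G20970* among them, are not on that list, and they did pass the paired fit. None of the lists from cold response to heat shock had a member past the test over all libraries.

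The shares of promoters with each of 8 motifs, searched on both strands, were set beside those of all tested genes. The evening element was present in 2 of 53 promoters of genes that rose (3.77%) and in 1 of 15 of those that fell (6.67%), against 3.07% of the 17220 tested genes with a promoter in the RefSeq table (250 bases before to 50 after the start). Among the genes of the paired fit it was in 6.73% of 891 higher and in 2.05% of 1123 lower. The G-box was in 1.89% and 6.67% of the called genes, in 10.5% and 11.9% of the paired calls and in 8.96% of all. The site II letters GGCCCA, common before ribosomal protein genes, were in 7.55% and 26.7% of the called genes, in 11.3% and 19.6% of the paired calls and in 20% of all. The CCA1-binding letters AAAAATCT were in 9.43% and 13.3% of the called genes, in 6.96% and 8.28% of the paired calls and in 8.36% of all. The W-box TTGAC was in 34% and 46.7%, in 43.9% and 51.6%, and in 50.8% of all. The I-box GATAAG was in 13.2% and 13.3%, in 17.7% and 18.1%, and in 14.9% of all. The cold-response letters CCGAC were in 11.3% and 6.67%, in 14% and 15%, and in 16.6% of all. The rapid stress letters CGCGTT were in 5.66% and 0%, in 3.14% and 3.29%, and in 3.81% of all. A match is a description of the sequence and not a binding site.

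The step was set beside the later one from 25.5 to 26 h, which shares no library with it. The later step was chosen because it starts from another time point of high *LHY*. A fall of *LHY* there, and changes of genes that move with it, are therefore not independent of that choice. *LHY* stood at 239 CPM at 25.5 h and at 57.8 CPM at 26 h (means, n = 3). Replicate 2 of 26 h had 7.08% of its reads in photosystem and Rubisco genes, against 15.62% and 13.95% in replicates 1 and 3. No fit left this library out. The step from 25.5 to 26 h gave 689 genes higher (3.92%) and 976 lower (5.56%) in the same fit, in all 1665 (9.48%). *LHY* fell there by 2.05 on the log2 scale (adjusted p = 0.026) and *PRR9* rose (1.91 ± 0.51, adjusted p = 0.021), and the difference between the 2 steps did not pass for either (0.94 ± 0.79 and -0.18 ± 0.72; adjusted p = 0.57 and 0.92). For *BAM3* the later log2 change was -0.89 ± 0.27 (adjusted p = 0.034), for *CYP71B26* 0.81 ± 0.23 (0.028) and for *PYD1* 0.37 (0.035), all in the direction of the first step. Of the 54 genes that rose at 20 h, 18 had a log2 change above 0 at 26 h, where 51.3% of all tested genes did, and 2 were called higher and 4 lower.

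The difference between the steps was tested directly and passed for 327 genes (1.86%), 222 of them with a higher change in the first step (1.26%) and 105 with a lower one (0.598%). Of the 54 genes 33 passed and of the 15 genes 5. These genes were chosen for their first-step change, which is part of the difference, so nothing is read from those counts. *RTM2* had a log2 change of 1.12 in the first step and -0.29 in the later one (difference 1.42 ± 0.26, adjusted p = 0.0064). *AAP2* had 0.77 and -0.25 (1.03 ± 0.21, adjusted p = 0.013), and *SULTR2;1* 0.64 and -0.41 (1.05 ± 0.20, adjusted p = 0.0078). The marker gene *XCP1* had 1.01 and -0.55 (1.56 ± 0.36, adjusted p = 0.023). Among genes that fell, *NOA1* had -0.39 and 0.26 (-0.66 ± 0.13, adjusted p = 0.0078). The difference did not pass for the transporter genes *ABCB19* (0.53 ± 0.26, adjusted p = 0.29), *AAP4* (0.57 ± 0.19, 0.11) and *UMAMIT28* (0.75 ± 0.28, 0.16), or for the xylem markers *XCP2* (1.19 ± 0.35, 0.07) and *IRX1* (1.01 ± 0.30, 0.074). For *BAM3* the difference was -0.48 ± 0.38 (adjusted p = 0.54).

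**Figure D4:**
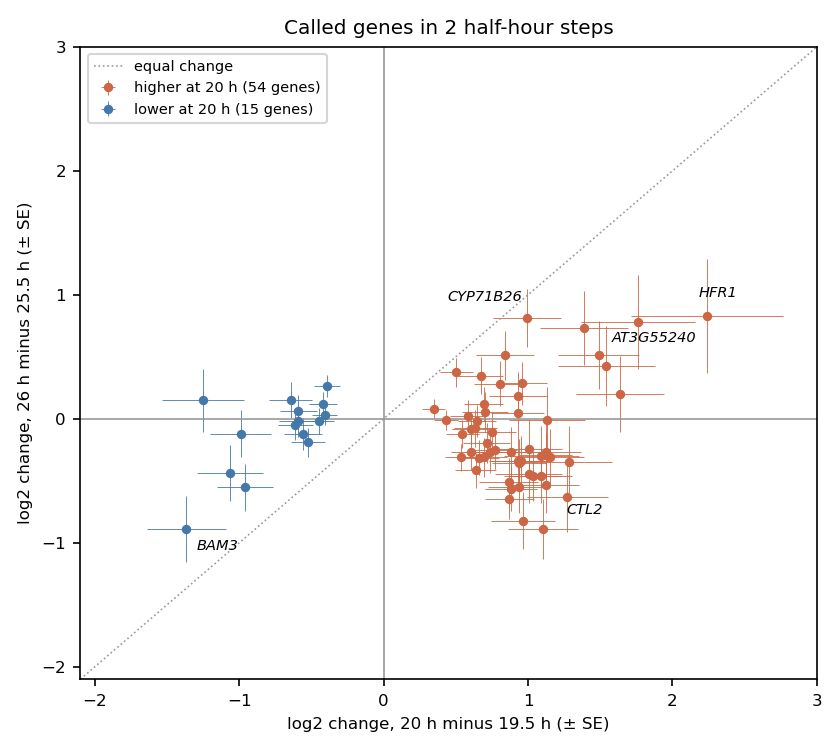
Log2 change from 19.5 to 20 h (x axis) against that from 25.5 to 26 h (y axis), each ± SE of the fit, for the 54 genes called higher (orange) and the 15 called lower (blue) at 20 h, with a dotted line of equal change. Most of the 54 genes lie below 0 on the y axis, 18 above it, and *BAM3* lies at -1.37 and -0.89.

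The next step, from 20 to 20.5 h, shares the 20 h libraries with the step described, and only the values are given. No gene was called higher and 2 were called lower (0.0114%), with 3058 at an unadjusted p under 0.05 in either direction (17.4%). The count of 2 became 667 without the 2 displaced libraries, 256 with DESeq2 and 47 without the replicate factor. *AT3G55240* had a log2 change of 1.49 and then -0.65, with an adjusted p of 0.22 in the next step. *BAM3* had -1.37 and then 0.64 (0.22), *NAC1* 0.84 and then -0.83 (0.061), and *LHY* -1.11 and then 0.37 (0.76).

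Over the whole series, several of these genes had their lowest or highest mean at 19.5 h. The mean of *AT3G55240* at 19.5 h, 125 CPM, was below that of each of the other 14 time points from 20.5 h on, which ran from 149 CPM at 22.5 h to 444 CPM at 23 h. The same held for *ABCB19*, at 56.7 CPM against 72.4 to 118 CPM. *BAM3* at 19.5 h, 728 CPM, was above all 14, which ran from 277 CPM at 26.5 h to 722 CPM at 24 h, and so was *LHY*, at 394 CPM against 33.3 to 239 CPM. The mean of *XCP1* was instead highest at 20 h, 20.7 CPM, with 20.6 CPM at 21.5 h and 4.61 CPM at 26 h. These ranks are descriptions of means and were not tested.

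**Figure D5:**
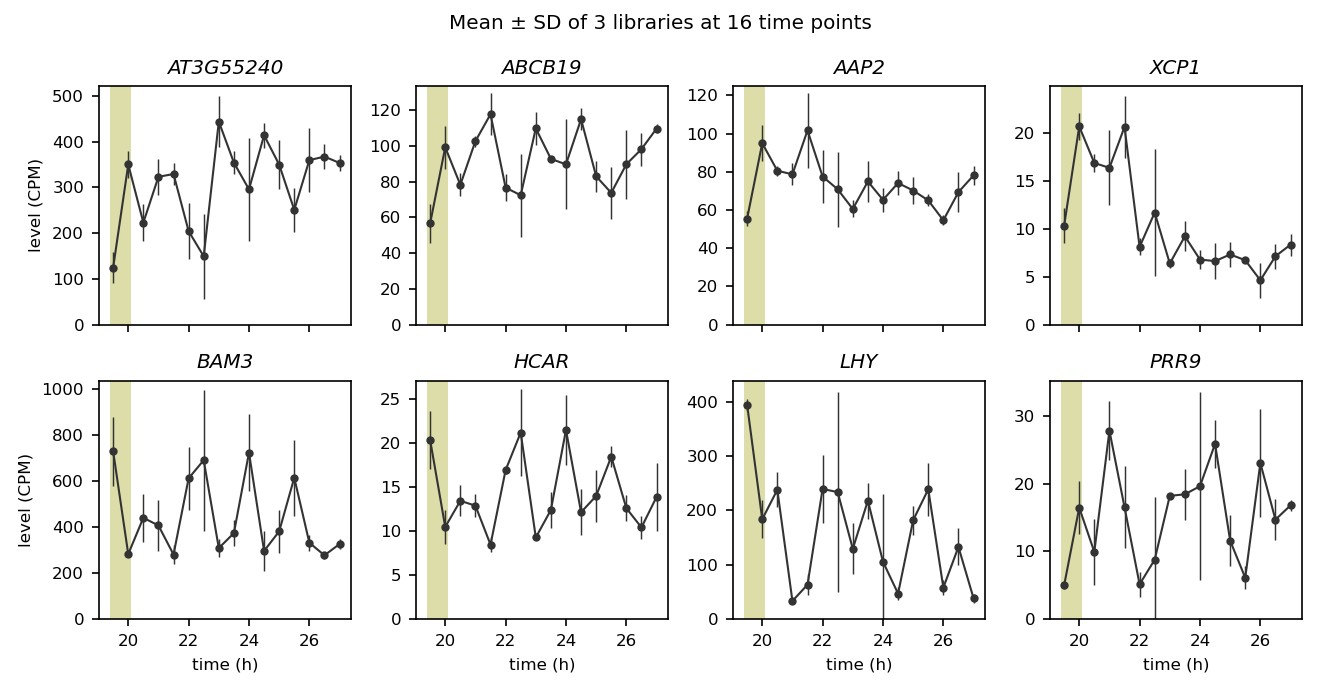
Mean ± SD of the 3 libraries of each of the 16 time points, in CPM on axes from 0, for 8 genes, with the step from 19.5 to 20 h shaded. *AT3G55240*, *ABCB19* and *PRR9* are at their lowest at 19.5 h, *BAM3* and *LHY* at their highest, and *XCP1* is at 20.7 CPM at 20 h and 4.61 CPM at 26 h.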

How the data were processed

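RNA from excised leaves was sequenced at 16 time points with 3 replicates each, and the groups were read from the sample labels. Per the study's methods, reads were trimmed (FastQC is named), STAR was used for mapping to TAIR10 and HTSeq for gene-level counting. The authors deposited the raw counts, whole numbers for 34262 genes, in 1 table. The sources used here name no tool versions, no annotation release and no strand setting, so reads of overlapping and antisense genes cannot be told apart, and near-identical genes may share counts.

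From these counts, TMM factors and CPM were computed, and 17562 genes whose mean reached 1 CPM were kept. The main test was the two-sided quasi-likelihood F test of edgeR 4.0.16 in R 4.3.3, adjusted by Benjamini-Hochberg and called under 0.05. It was fitted to all 48 libraries with 16 time levels and, as the study's methods have it, the replicate number as a factor (30 residual degrees of freedom). SE values are the size of the log2 change divided by the root of F. The paired fit of the 6 libraries has 2 residual degrees of freedom and rests largely on the moderated spread. The deviations of same-numbered samples from their group means correlated at 0.41, 0.70 and 0.72, against -0.63 to 0.14 for other pairs. Deviations within a time sum to 0, so values above 0 for same-numbered pairs push the others below 0. The contrast is therefore not independent evidence of pairing, and it was read from the same data that the paired fit tests. No pair of replicates was identical (chi-square per degree of freedom 14.3 to 47.8). The fits were tested on simulated data with independent libraries. These held no replicate effect, no time course and no displaced libraries, so they do not tell how the fits behave with those features.

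Named genes were the 12 largest rises and 12 largest falls among called genes above 10 CPM without overlap, up to 4 genes per list by smallest p, and genes named by the study or central to the clock; all other names, further called genes among them, were picked with their values in view. The step, the 28 lists and the 5 groups of genes drawn from their annotation were chosen with earlier results of these data known. Of 535 loci in the lists 479 were tested. Lists are described by counts and medians with no test of their own. Gene names and promoters came from RefSeq for TAIR10.1, which gave a promoter for 17220 of 17562 tested genes. Alternatives were scaling by DESeq2 size factors or by library totals, no minimum level, a minimum of 5 CPM, a fit with no replicate factor, the 6 libraries with and without it, the 2 displaced libraries left out, each of the 6 libraries left out in turn, robust moderation, DESeq2 1.42.0 and limma-voom (limma 3.58.1). The leave-one-out fits and other tests of the 6 libraries were added after seeing the data.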

Additional observations from a re-analysis of the deposited data

Results flagged for a closer look

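The change from 19.5 to 20 h differed from that from 25.5 to 26 h, by the contrast of both steps in the edgeR fit of all libraries, for 26 of the genes named. Values are differences of the log2 changes, first step minus later step. Many of these genes were named for their first-step change, which is part of the difference. Among transporter and phloem genes it was 1.03 (*AAP2*), 1.05 (*SULTR2;1*), 1.01 (*NRT1.9*), 0.91 (*HMA2*), 1.15 (*SUS6*), 1.27 (*RTM1*), 1.42 (*RTM2*) and 1.11 (*SEOR1*). Among wall and xylem genes it was 1.39 (*CTL2*), 1.54 (*PRR1*, pinoresinol reductase), 1.56 (*XCP1*), 1.16 (*IRX3*), 1.10 (*CESA4*) and 1.34 (*EXPA4*). Others with a higher change in the first step were *AT5G20970* (1.5), *AT1G29520* (1.51), *AT5G18970* (1.45), *NS2* (1.0), *SCE1* (0.44), *CYP83A1* (0.77) and *CYCD3;1* (1.19). Lower in the first step than in the later one were *AT5G24060* (-0.80), *AT4G36960* (-0.54), *GYRB2* (-0.44), *NOA1* (-0.66) and the clock gene *PRR3* (-2.02). Among these 26 genes the adjusted p was lowest for *AT1G29520* (0.0062) and highest for *CESA4* (0.048). The number of such genes over the whole table depended on the fit, as given with the alternatives. All these differences include 26 h replicate 2, the library low in photosystem and Rubisco reads.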

How the results depend on the processing

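Counts for the step (54 genes higher and 15 lower) became 17 higher with library totals, 32 and 9 with no filter, 23 lower with no replicate block, 900 and 1145 with the replicate block in the 6 libraries alone, 35 and 25 in those without the block, 571 and 624 without 22.5 h replicate 1 and 24 h replicate 3, 177 and 96 with DESeq2, and 9 lower with limma-voom. Leaving out 1 of the 6 libraries of 19.5 h and 20 h at a time gave 0 to 67 higher and 0 to 23 lower. No other library was left out singly. In the paired fit, 762 genes were lower with DESeq2 and 2006 with library totals, and leaving out a replicate number gave 0 to 1451 higher and 0 to 1618 lower. For 20 to 20.5 h (2 genes) the count was 0 with library totals or no filter, 47 without the replicate block, 667 without the 2 displaced libraries, 256 with DESeq2 and 1 with limma-voom. It was 0 to 2 with 1 of the same 6 libraries left out, none of which is from 20.5 h. For 25.5 to 26 h (1665 genes) the count was 2870 without the 2 displaced libraries and 1536 to 1716 with 1 of the same 6 left out. None of the 6 belongs to that step, so this range does not tell how the step depends on its own libraries. For the difference of the steps (327 genes) the count was 209 with no filter, 199 at 5 CPM, 686 without the 2 displaced libraries and 657 with DESeq2. It was 88 to 267 with 1 of the 6 left out, while every library of 25.5 h and 26 h stayed in. Of 123 named genes, *TOC1* ran from -0.25 to 0.048 with 1 library left out, above 0 without 19.5 h replicate 1, and *AFB2* from -0.16 to 0.085, above 0 without 19.5 h replicate 1 (0.067) or 20 h replicate 3, and neither was called. In these and the other alternatives no other named gene changed direction. All 40 called named genes lost their call without 19.5 h replicate 2 or without 20 h replicate 2, 39 without 20 h replicate 3, 30 without 19.5 h replicate 1, 26 without 20 h replicate 1, 15 with library totals and 33 in the 6 libraries without the block. The cause of these changes was not tested. Low counts limit genes such as *YUC9* and *CBF2*, at or under 2.33 CPM in each library.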

Other observations

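Of 5 gene groups drawn from the annotation, the plastid genome is described above. The ribosomal, proteasome and histone groups were drawn by the wording of the product, so a member need not be what the group name says. Of 226 genes drawn as cytosolic ribosomal protein genes 182 had a log2 change above 0, but the median was 0.10. None passed over all libraries, and 6 were higher and 2 lower in the paired fit, where 5.12% and 6.52% of all tested genes were. Of 27 proteasome genes 24 were above 0 (median 0.08), with 1 lower in the paired fit. Of 11 genes drawn as core histone genes 10 were above 0 (median 0.22), with 1 higher in the paired fit. This group also held *AT3G07565*, annotated as a histone H2A deubiquitinase and not a histone. Of 22 transcripts of the mitochondrial genome 10 were above 0 (median -0.07) and none passed the paired fit. Over all tested genes 8698 of 17562 were above 0.

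Of the 479 tested genes in the 28 lists, 4 were called over all libraries, *ABCB19*, *NAC1*, *SULTR2;1* and *BAM3*, where 0.393% of all tested genes were. Families with more than 1 called gene, read after the values were seen, included the HSP20-like genes (*RTM2* and *AT5G20970* among them), the AWPM-19-like genes *AT1G29520* and *AT5G18970*, and the amino acid permeases *AAP2* and *AAP4*. The thaumatin, X8 domain and major facilitator annotations also came up more than once. Family sizes and members not called were not counted, so nothing is read from these families. Of the 2045 genes called in the paired fit, 404 were called in the same direction from 25.5 to 26 h and 39 in the opposite direction. In that step 3.92% of all tested genes were called higher and 5.56% lower. Of the 54 genes called higher over all libraries, 2 were called higher there and 4 lower. Of the 15 called lower, 1 was called lower there and none higher. That step was chosen for its start at high *LHY*, so nothing is read from these counts.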
